A study of Homo sapiens with 12 samples.

Results

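The genes of cholesterol and fatty acid synthesis were examined in lung cancer cells with and without added ZNF263. They comprised 36 genes, taken by name from a pathway list and all found among the 20003 genes of the expression table. Of these, 5 encode the SREBP control system, 19 belong to the sterol branch and 12 to the fatty acid branch. RNA-seq was run on 3 established non-small-cell lung cancer lines with EGFR mutations, namely PC9, HCC827 and H1975. Sample titles write them PC9OR, HCC827OR and H1975OR, and no label explains the OR, so the plain line names stand here for the cells under those titles. In each line, cells carrying a ZNF263 vector were compared with cells carrying a control vector, with 2 libraries per group and 12 libraries in all. All cells, controls included, were kept in DMEM and had met osimertinib, an EGFR inhibitor, in rising steps. The labels name neither the vector's promoter nor any clone, and do not say that the 2 libraries of a group came from separate cultures. The p-values therefore rest on library-to-library spread, and that spread may be technical. ZNF263 is a transcription factor of the KRAB zinc finger family, and the question was what its expression changes in these cells.

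Sterol synthesis builds cholesterol from acetyl-CoA through mevalonate, farnesyl diphosphate, squalene and lanosterol. Fatty acid synthesis turns the same acetyl-CoA into palmitate, which elongases and desaturases then modify. Both branches are driven by the SREBP transcription factors, which are made in the endoplasmic reticulum, escorted by SCAP to the Golgi for cleavage, and held back by the INSIG proteins when sterols are plentiful. The protein of SREBF2 chiefly drives the sterol genes and that of SREBF1 chiefly the fatty acid genes.

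The promoters of 6 members are shown as examples: the pair of SREBP genes and INSIG1 as the control of both branches, the mevalonate enzyme MVK from the sterol branch, and from the fatty acid branch ELOVL6, with the largest rise, and AACS, the member called in every line. Each window holds 250 bases before and 50 after a RefSeq start (GRCh38.p14) and is written 5′ to 3′ on the strand of the gene. Capitals mark every match, on either strand, to 5 motifs: TCACNCCAC (a sterol regulatory element), CCAAT (an NF-Y box), CACGTG (an E-box, identical on both strands), GGGCGG (an SP1 box) and GGAGGAGG (a repeat of the kind reported for ZNF263).
SREBF1 (chr17:17836937-17837236, minus strand): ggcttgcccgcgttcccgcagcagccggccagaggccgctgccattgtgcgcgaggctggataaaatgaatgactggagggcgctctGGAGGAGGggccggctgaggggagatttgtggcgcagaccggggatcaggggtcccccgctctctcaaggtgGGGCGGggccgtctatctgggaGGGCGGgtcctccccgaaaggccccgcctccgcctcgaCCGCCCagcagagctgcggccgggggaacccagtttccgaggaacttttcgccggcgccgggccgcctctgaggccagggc
SREBF2 (chr22:41832855-41833154, plus strand): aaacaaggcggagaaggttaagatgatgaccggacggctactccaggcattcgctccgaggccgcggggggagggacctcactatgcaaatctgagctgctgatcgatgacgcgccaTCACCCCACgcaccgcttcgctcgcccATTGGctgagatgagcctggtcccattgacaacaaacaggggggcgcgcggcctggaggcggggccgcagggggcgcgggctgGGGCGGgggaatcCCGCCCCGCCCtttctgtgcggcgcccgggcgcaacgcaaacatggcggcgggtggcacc
INSIG1 (chr7:155297628-155297927, plus strand): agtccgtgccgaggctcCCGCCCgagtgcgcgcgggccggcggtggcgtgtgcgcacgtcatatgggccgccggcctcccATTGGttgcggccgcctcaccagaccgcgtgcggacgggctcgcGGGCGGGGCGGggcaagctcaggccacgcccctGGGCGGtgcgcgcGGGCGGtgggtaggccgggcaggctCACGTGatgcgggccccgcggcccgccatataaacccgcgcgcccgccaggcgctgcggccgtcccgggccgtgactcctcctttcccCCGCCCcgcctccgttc
MVK (chr12:109573544-109573843, plus strand): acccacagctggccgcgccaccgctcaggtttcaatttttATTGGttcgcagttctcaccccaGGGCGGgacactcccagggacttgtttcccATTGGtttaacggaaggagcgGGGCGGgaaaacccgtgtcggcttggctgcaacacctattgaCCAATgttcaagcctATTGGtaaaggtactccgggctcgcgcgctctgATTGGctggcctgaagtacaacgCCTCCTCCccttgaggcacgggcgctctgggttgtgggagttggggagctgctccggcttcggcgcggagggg
ELOVL6 (chr4:110198566-110198865, minus strand): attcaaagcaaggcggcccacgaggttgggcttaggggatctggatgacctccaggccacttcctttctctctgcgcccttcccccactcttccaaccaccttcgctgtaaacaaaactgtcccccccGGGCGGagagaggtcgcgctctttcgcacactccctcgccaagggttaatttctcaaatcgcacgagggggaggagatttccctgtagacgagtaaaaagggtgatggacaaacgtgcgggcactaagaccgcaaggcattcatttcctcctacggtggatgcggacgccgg
AACS (chr12:125065185-125065484, plus strand): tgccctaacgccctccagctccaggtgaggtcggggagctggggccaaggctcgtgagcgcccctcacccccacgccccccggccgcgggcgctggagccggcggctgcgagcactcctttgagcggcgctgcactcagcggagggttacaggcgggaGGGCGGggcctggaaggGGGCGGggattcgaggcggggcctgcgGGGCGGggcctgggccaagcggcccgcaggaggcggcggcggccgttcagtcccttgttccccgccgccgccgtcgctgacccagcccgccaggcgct

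In the SREBF2 window the capitals at bases 118 to 126, counted from the 5′ end, are the sterol regulatory element, and those at bases 145 to 149 are an NF-Y box on the other strand. The SREBF1 window has the GGAGGAGG repeat at bases 88 to 95 and no NF-Y box. In the MVK window there are 5 NF-Y boxes and, at bases 228 to 235, the GGAGGAGG repeat on the other strand. The INSIG1 window has an E-box at bases 196 to 201, and 2 of its 6 SP1 boxes share base 130. In the ELOVL6 and AACS windows SP1 boxes alone were found.

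RefSeq windows were at hand for 32 of the 36 members, with 44 windows in all, and not for ACAT2, FDFT1, SQLE or FASN. An exact match to the sterol regulatory element TCACNCCAC was present in 2.27% of the members' windows, which is the SREBF2 window alone. It was present in 1.13% of all 35116 promoter windows. Elements that differ from these letters were not searched for, so their absence from the other windows is not shown. NF-Y boxes were present in 63.6% of the members' windows and in 34.6% of all windows. By gene, 14 of 16 sterol genes and 8 of 11 fatty acid genes had an NF-Y box. SP1 boxes were present in 86.4% of the members' windows against 45.0% of all windows, and E-boxes in 13.6% against 7.26%. The GGAGGAGG repeat was present in 13.6% of the members' windows (SREBF1, INSIG2, MVK, TM7SF2 and DHCR7) and in 10.9% of all windows. Among these 5 genes in H1975, SREBF1 and DHCR7 rose with ZNF263 while INSIG2, MVK and TM7SF2 fell. A match is a description of letters in these windows and says nothing about binding.

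ZNF263 itself was measured at 39.3 and 39.0 FPKM in PC9 with ZNF263 against 9.55 and 9.11 FPKM in PC9 controls. It was measured at 19.6 and 19.8 FPKM in HCC827 with ZNF263 against 13.2 and 11.8 FPKM in HCC827 controls, and at 39.1 and 39.8 FPKM in H1975 with ZNF263 against 10.2 and 9.63 FPKM in H1975 controls. The rise was smallest in HCC827 (change 0.62, against 1.96 in PC9 and 1.89 in H1975). FPKM is a fragment count scaled by gene length and library size. For the median gene, 1 FPKM was worth 65.6 to 80.9 recovered reads (a lower bound) in the PC9 and HCC827 libraries and 120.5 to 130.2 in those of H1975. Genes without a value numbered 0 in PC9, 3383 in HCC827 and 3339 in H1975. The columns of the 3 lines may thus come from tables made separately, so levels across lines are set side by side only. Of 7 lung epithelial markers, 3 reached 1 FPKM in PC9, where EPCAM lay between 0.168 and 0.414 FPKM, and all 7 did in HCC827 and H1975. No endothelial, adipocyte or hepatocyte marker reached 1 FPKM in any library.

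All 36 members passed the expression filter and were tested in every line, with limma on log2(FPKM + 1). A change is the mean log2(FPKM + 1) with ZNF263 minus that of the control, and a gene was called at a Benjamini-Hochberg adjusted p under 0.05 over all genes. In PC9, 5 members were called higher (13.9%), against 7.21% of all genes, and 0 were called lower, against 4.12% of all genes. At an unadjusted p under 0.05 from limma, 9 members were higher and 4 lower in PC9. In HCC827, 4 members were called higher (11.1%) against 13.0% of all genes, and 3 were called lower (8.33%) against 6.44%. In H1975, 12 members were called higher (33.3%) against 32.1% of all genes, and 14 were called lower (38.9%) against 32.1%. With median-of-ratios scaling the members called in HCC827 were 3 higher and 5 lower, and with quantile normalization 3 higher and 2 lower, while the share of rises among all calls moved to 45.0% and 50.5% against 66.9% on the deposited scale. The members' shares in HCC827 and H1975 were near those of all genes. The PC9 share rested on 5 calls. With the 4 PC9 libraries alone, 1 member was called higher, beside 287 of 12623 genes tested. The members were also chosen with earlier results of these data known, so these counts set nothing apart about the pathways as a whole.

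**Figure D1:**
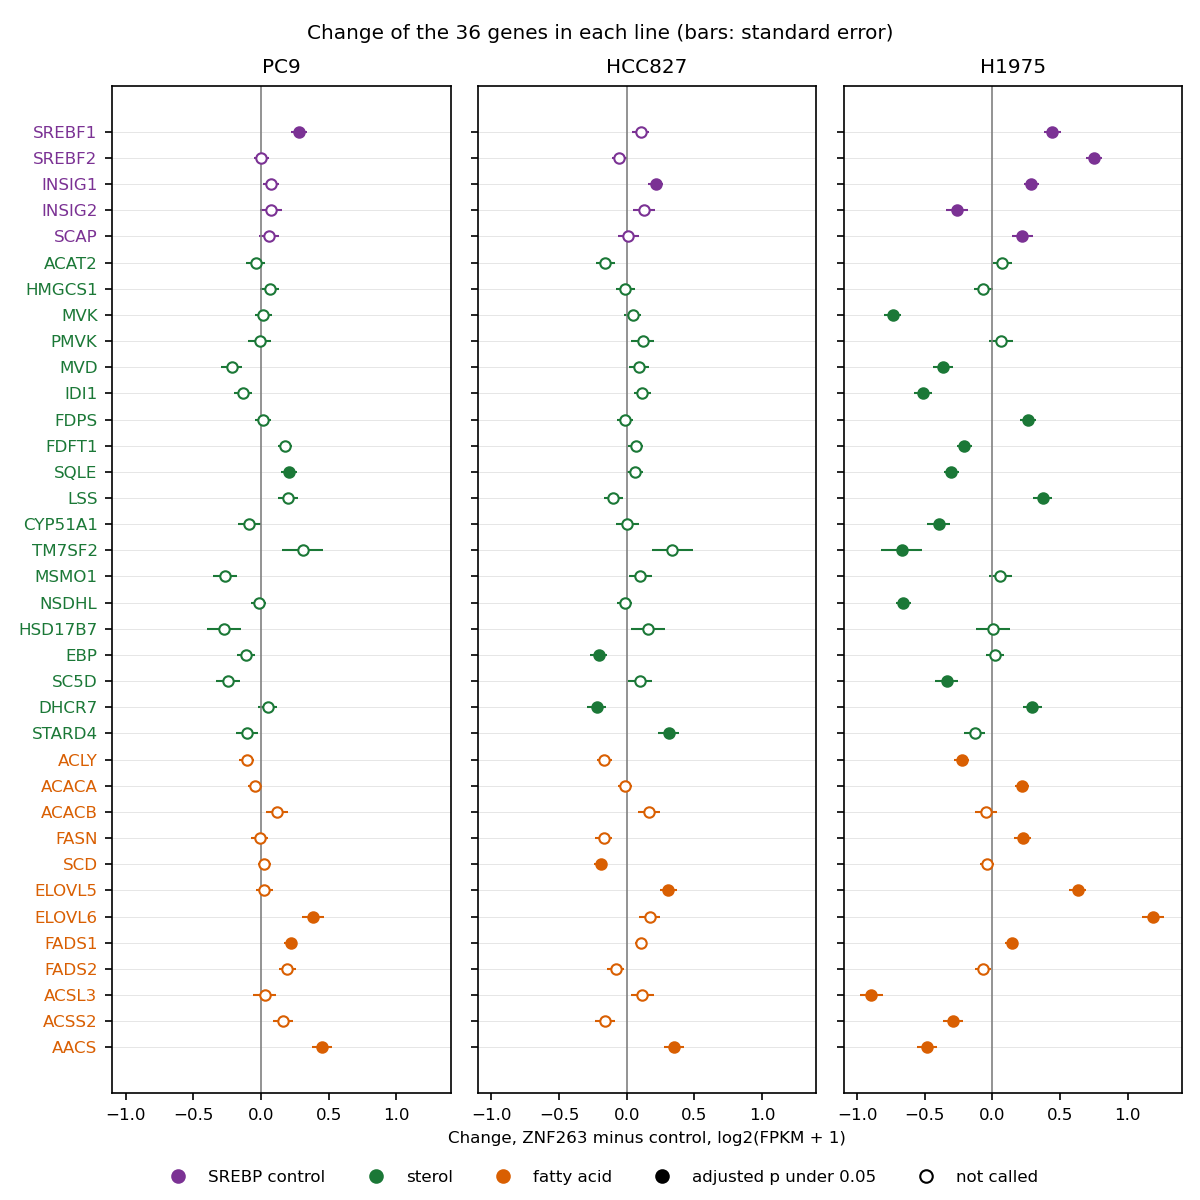
Change of each of the 36 genes (ZNF263 minus control, on the log2(FPKM + 1) scale) in PC9, HCC827 and H1975, with 2 libraries per group. Bars are standard errors from limma, filled points are called at an adjusted p under 0.05, and colours give the role; points lie within 0.50 of 0 in PC9 and HCC827, and between -0.90 (ACSL3) and 1.18 (ELOVL6) in H1975.

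All 5 genes of the SREBP control system passed the test in H1975, where 64.2% of all genes did. In PC9 and in HCC827 1 of the 5 passed, against 11.3% of all genes in PC9 and 19.5% in HCC827. SREBF2 (chromosome 22, 41833079 to 41907308, GRCh38) had 38.8 and 39.3 FPKM in H1975 with ZNF263 against 23.8 and 21.9 FPKM in H1975 controls. The groups did not overlap, and the change was 0.75 ± 0.06 (SE, limma adjusted p = 1.21e-07). In PC9 it had 32.2 and 30.7 FPKM with ZNF263 against 30.9 and 31.8 FPKM in controls, and in HCC827 40.4 and 38.4 FPKM with ZNF263 against 41.9 and 40.1 FPKM in controls. The groups overlapped in both of these lines. The SREBF2 change in H1975 exceeded that in HCC827 by 0.81 ± 0.08 (SE, limma adjusted p = 3.26e-06).

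SREBF1 (chromosome 17, 17810399 to 17837002) rose in PC9 and in H1975. It had 69.7 and 67.5 FPKM in PC9 with ZNF263 against 57.4 and 55.2 FPKM in PC9 controls, a change of 0.28 ± 0.06 (SE, limma adjusted p = 0.0109). In HCC827 it had 90.5 and 80.7 FPKM with ZNF263 against 82.3 and 76.6 FPKM in controls, and the groups overlapped. In H1975 it had 16.8 and 16.4 FPKM with ZNF263 against 11.7 and 12.2 FPKM in controls, with no overlap and a change of 0.44 ± 0.06 (SE, limma adjusted p = 3.76e-05). The PC9 call was lost without control library 2 or without ZNF263 library 1, when the adjusted p reached at most 0.112. SREBF1 overlaps RAI1 on the opposite strand, and since no strand setting is given, reads of the shared stretch cannot be told apart.

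INSIG1 (chromosome 7, 155297776 to 155310235), which holds SREBPs in the endoplasmic reticulum and is itself a sterol-regulated gene, had the same sign in all 3 lines. It had 28.6 and 31.2 FPKM in PC9 with ZNF263 against 27.8 and 28.8 FPKM in PC9 controls, which overlapped. In HCC827 it had 37.9 and 40.6 FPKM with ZNF263 against 32.9 and 34.5 FPKM in controls, and in H1975 36.8 and 36.6 FPKM with ZNF263 against 30.0 and 29.8 FPKM in controls. The groups were apart in these 2 lines, with changes of 0.21 ± 0.06 (SE, limma adjusted p = 0.0214) in HCC827 and 0.29 ± 0.06 (SE, limma adjusted p = 0.000725) in H1975. The HCC827 call was lost without control library 1 or ZNF263 library 2 (adjusted p up to 0.143) and with median-of-ratios scaling (adjusted p = 0.108). INSIG2, the second retention protein, fell by 0.26 in H1975 (limma adjusted p = 0.0133), and SCAP, the escort, rose by 0.22 (limma adjusted p = 0.023). The SCAP call was lost without any 1 of the 4 H1975 libraries, and the INSIG2 call without control library 2 or ZNF263 library 1 (adjusted p up to 0.0944 and 0.135).

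**Figure D2:**
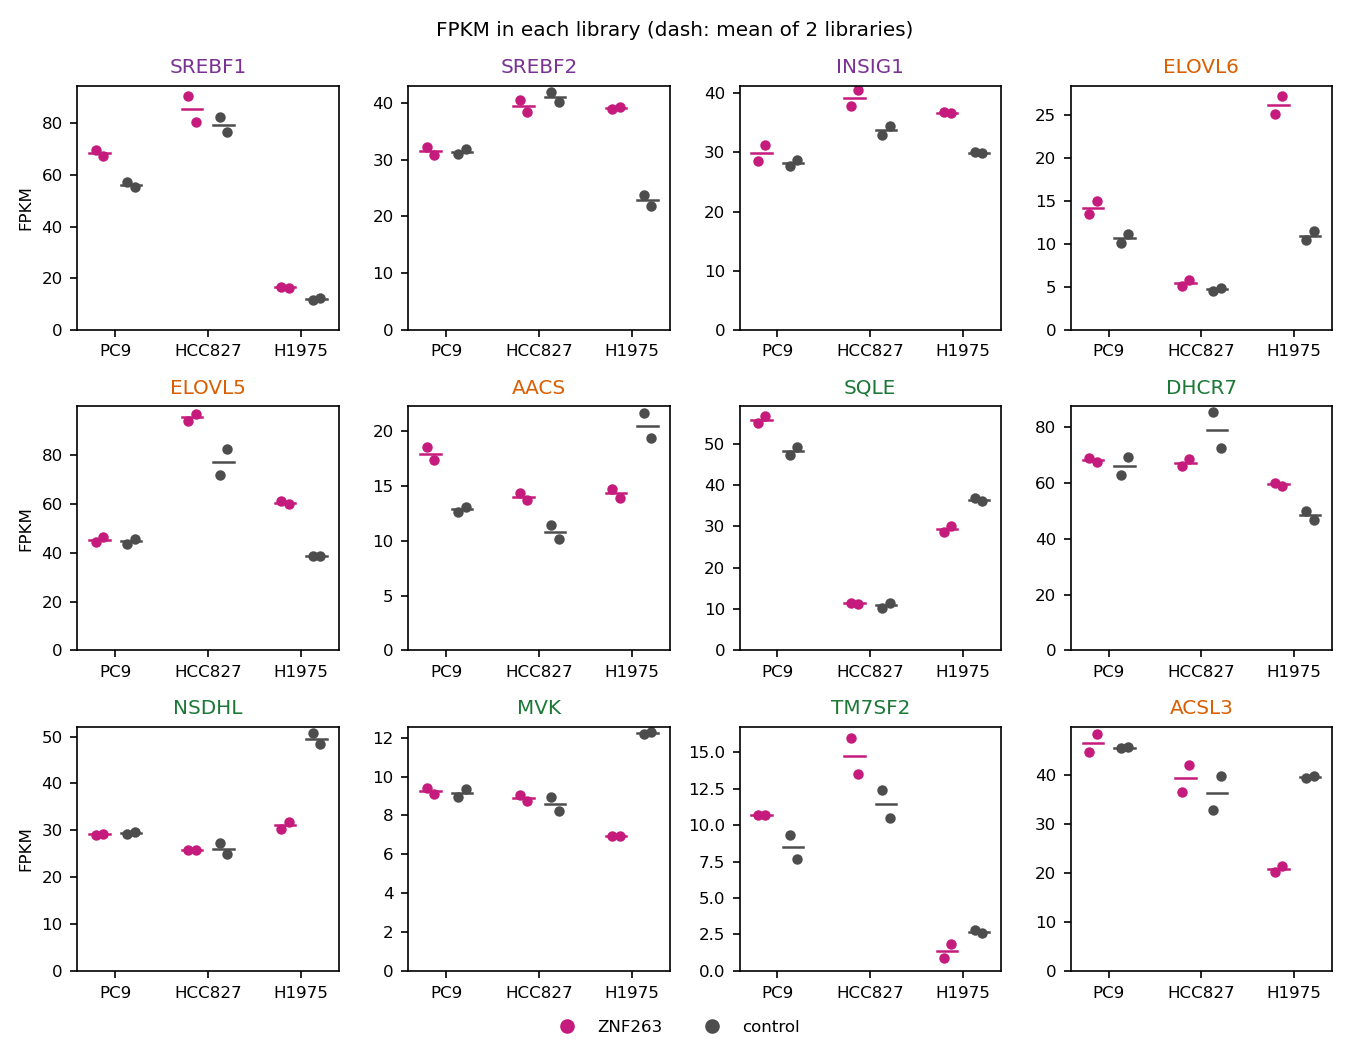
FPKM of 12 genes in every library, by line, with ZNF263 left of control; points are libraries and dashes are the mean of 2 libraries, on linear axes from 0. SREBF2 stood at 38.8 and 39.3 FPKM in H1975 with ZNF263 against 23.8 and 21.9 FPKM in H1975 controls, and AACS was higher with ZNF263 in PC9 and HCC827 but lower in H1975.

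In the sterol branch, 3 of 19 genes rose in H1975 (15.8%, against 32.1% of all genes), 9 fell (47.4%, against 32.1%) and 7 were not called, with a median change of -0.13 against 0.00254 over all genes tested. In PC9, 1 sterol gene rose, 0 fell and 18 were not called (median -0.02, all genes 0), and at an unadjusted p under 0.05 limma gave 3 higher and 4 lower. In HCC827, 1 rose, 2 fell and 16 were not called (median 0.06, all genes 0.04).

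Among the 7 genes from acetyl-CoA to farnesyl diphosphate, none was called in PC9 or HCC827, where limma gave 0 higher and 1 lower in each line at an unadjusted p under 0.05. In H1975, 3 fell (42.9%) and 1 rose (14.3%), against 32.1% of all genes in each direction. MVK (chromosome 12, 109573255 to 109598117), the kinase that phosphorylates mevalonate, had 6.93 and 6.93 FPKM in H1975 with ZNF263 against 12.2 and 12.3 FPKM in H1975 controls. The change of -0.74 ± 0.06 (SE, limma adjusted p = 3.81e-07) contrasted with 0.02 in PC9 and 0.05 in HCC827, and its groups overlapped in those lines. MVK overlaps MMAB on the opposite strand, so its reads are uncertain to that extent. IDI1, the isomerase that makes dimethylallyl diphosphate, averaged 9.48 ± 0.38 FPKM in H1975 with ZNF263 and 13.97 ± 0.351 FPKM in H1975 controls (SD, n = 2 each; change -0.51 ± 0.07 SE, limma adjusted p = 1.55e-05). MVD, the decarboxylase before it, changed by -0.37 (limma adjusted p = 0.000785). FDPS, which makes farnesyl diphosphate, rose by 0.26 in H1975 (limma adjusted p = 0.00166), but 8 pseudogenes carry its name and the counting could have split reads among them. The entry enzymes ACAT2 and HMGCS1, and PMVK, were not called in any line.

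Of the 11 enzymes from squalene synthesis to cholesterol, 6 fell (54.5%) and 2 rose (18.2%) in H1975, against 32.1% of all genes in each direction. NSDHL (chromosome X, 152830967 to 152869729), which takes part in removing the methyl groups of lanosterol, had 30.3 and 31.9 FPKM in H1975 with ZNF263 against 50.8 and 48.4 FPKM in H1975 controls. The groups were far apart, with a change of -0.66 ± 0.06 (SE, limma adjusted p = 3.82e-07). TM7SF2, a sterol reductase, had 0.915 and 1.82 FPKM in H1975 with ZNF263 against 2.81 and 2.58 FPKM in H1975 controls, a change of -0.67 ± 0.15 (SE, limma adjusted p = 0.00175). This gene was the lowest in reads of those called, with 49 to 153 recovered reads per H1975 library, and it overlaps VPS51 on the same strand. In PC9 it had 10.7 and 10.7 FPKM with ZNF263 against 9.32 and 7.68 FPKM in controls, and in HCC827 16.0 and 13.5 FPKM with ZNF263 against 12.4 and 10.5 FPKM in controls. These changes of 0.31 in PC9 and 0.34 in HCC827 were not called. CYP51A1, SC5D and FDFT1 changed by -0.40, -0.34 and -0.21 in H1975 (limma adjusted p = 0.00119, 0.00422 and 0.00392). CYP51A1 overlaps AC000120.2 and AC000120.3 on the same strand, and 3 pseudogenes carry its name. LSS, which closes the sterol ring, rose by 0.37 in H1975 (limma adjusted p = 0.000589).

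SQLE and DHCR7 were called in opposite directions in different lines. SQLE, the squalene epoxidase, had 55.0 and 56.7 FPKM in PC9 with ZNF263 against 47.4 and 49.1 FPKM in PC9 controls (change 0.21 ± 0.06 SE, limma adjusted p = 0.0355). In H1975 it had 28.6 and 30.1 FPKM with ZNF263 against 36.9 and 36.02 FPKM in controls (change -0.30 ± 0.06 SE, limma adjusted p = 0.000457). The groups overlapped in HCC827, and the change in H1975 less that in PC9 was -0.51 ± 0.08 (SE, limma adjusted p = 0.00018). The PC9 rise was lost in every fit without a PC9 library (adjusted p up to 0.21), with the replicate block (adjusted p = 0.0533) and with the 4 PC9 libraries alone (adjusted p = 0.0683). DHCR7, the last reductase before cholesterol, had 66.1 and 68.8 FPKM in HCC827 with ZNF263 against 85.6 and 72.7 FPKM in HCC827 controls. It had 60.2 and 58.9 FPKM in H1975 with ZNF263 against 49.9 and 47.0 FPKM in H1975 controls. The fall of 0.22 in HCC827 (limma adjusted p = 0.0479) was lost without control library 1 or either ZNF263 library (adjusted p up to 0.298). It was also lost with a pseudocount of 0.1, no filter, quantile normalization, the replicate block and the line alone (adjusted p = 0.0577, 0.0907, 0.0558, 0.0603 and 0.213). The rise of 0.29 in H1975 (limma adjusted p = 0.00311) held without any H1975 library. EBP, a sterol isomerase, had 40.05 and 43.4 FPKM in HCC827 with ZNF263 against 51.2 and 45.6 FPKM in HCC827 controls and fell by 0.21 (limma adjusted p = 0.04). STARD4, a sterol carrier, had 4.68 and 4.95 FPKM in HCC827 with ZNF263 against 3.38 and 4.03 FPKM in HCC827 controls and rose by 0.31 (limma adjusted p = 0.0165). The groups of both genes were apart. The EBP call was lost with no filter and with the replicate block (limma adjusted p = 0.0694 and 0.06). That of STARD4 was lost with quantile normalization (limma adjusted p = 0.0614). With the line alone, EBP and STARD4 were not called (limma adjusted p = 0.21 and 0.147). Both calls were lost without HCC827 control library 1 or ZNF263 library 1, and that of STARD4 also without ZNF263 library 2 (adjusted p up to 0.265 for EBP and 0.102 for STARD4).

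**Figure D3:**
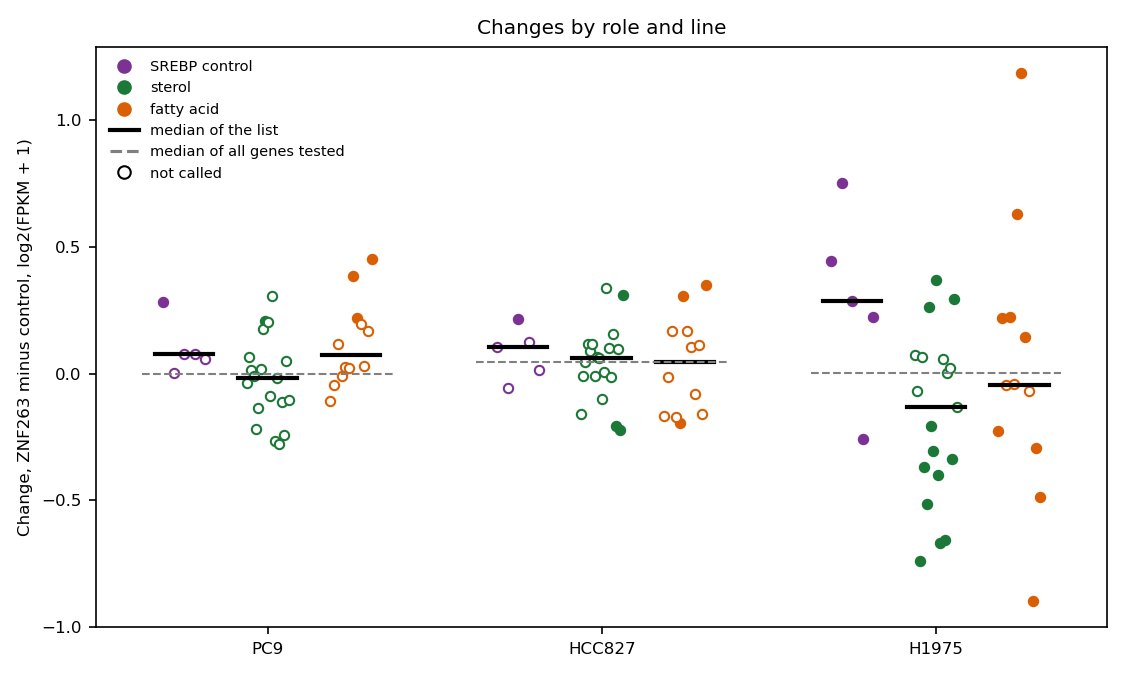
Changes (ZNF263 minus control, log2(FPKM + 1) scale) of the 5 SREBP control, 19 sterol and 12 fatty acid genes in each line; filled points are called, black lines are medians of each list and dashed lines the median of all genes tested. In H1975 the medians were 0.29 for SREBP control, -0.13 for sterol and -0.04 for fatty acid genes.

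The fatty acid branch held the largest rise and the largest fall among the members. ELOVL6 (chromosome 4, 110045846 to 110199199), the elongase that extends palmitate to stearate, had 25.2 and 27.3 FPKM in H1975 with ZNF263 against 10.5 and 11.5 FPKM in H1975 controls. This 2.39-fold difference in mean FPKM was a change of 1.18 ± 0.08 (SE, limma adjusted p = 4.82e-08), and the groups were far apart. In PC9 it had 13.5 and 14.99 FPKM with ZNF263 against 10.2 and 11.2 FPKM in controls (change 0.39 ± 0.08 SE, limma adjusted p = 0.00807). In HCC827 the values were 5.16 and 5.78 FPKM with ZNF263 against 4.58 and 4.93 FPKM in controls, without overlap but with an adjusted p of 0.169 from limma. The PC9 call was lost without control library 1 or ZNF263 library 2 (adjusted p up to 0.0916). Averaged over the lines, ELOVL6 changed by 0.58 ± 0.05 (SE, limma adjusted p = 6.67e-07).

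ELOVL5 (chromosome 6, 53267398 to 53349179), which elongates polyunsaturated fatty acids, had 61.0 and 59.8 FPKM in H1975 with ZNF263 against 38.8 and 38.6 FPKM in H1975 controls, a change of 0.63 ± 0.06 (SE, limma adjusted p = 1.55e-06). In HCC827 it had 93.9 and 97.0 FPKM with ZNF263 against 71.8 and 82.5 FPKM in controls, a change of 0.31 ± 0.06 (SE, limma adjusted p = 0.00473). In PC9 it had 44.4 and 46.4 FPKM with ZNF263 against 43.7 and 45.7 FPKM in controls, which overlapped. ELOVL5 was the only one of the 7 members called in HCC827 whose call held in all 4 fits without a library of that line. FADS1, the delta-5 desaturase, rose in PC9, with 138.9 and 143.6 FPKM with ZNF263 against 118.0 and 124.4 FPKM in controls (change 0.22 ± 0.05 SE, limma adjusted p = 0.00955). It rose by 0.14 in H1975 (limma adjusted p = 0.018) and its change of 0.10 in HCC827 was not called. Its PC9 call was lost without control library 1 or ZNF263 library 2 (adjusted p up to 0.111), and its H1975 call without any 1 of the 4 H1975 libraries (adjusted p up to 0.0932). FADS1 and FADS2 overlap on opposite strands, so their reads cannot be fully told apart.

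AACS (chromosome 12, 125065379 to 125143333), which makes acetoacetyl-CoA from acetoacetate in the cytosol, was the only member called in all 3 lines. It had 18.6 and 17.4 FPKM in PC9 with ZNF263 against 12.7 and 13.1 FPKM in PC9 controls, and 14.3 and 13.7 FPKM in HCC827 with ZNF263 against 11.5 and 10.2 FPKM in HCC827 controls. In H1975 it had 14.8 and 14.0 FPKM with ZNF263 against 21.7 and 19.4 FPKM in controls. The groups did not overlap in any line, and 1 pseudogene carries the name of AACS. The changes were 0.45 ± 0.07 in PC9, 0.35 ± 0.07 in HCC827 and -0.49 ± 0.07 in H1975 (SE, limma adjusted p = 0.00155, 0.00576 and 7.5e-05). The change in H1975 less that in PC9 was -0.94 ± 0.10 (SE, limma adjusted p = 8.73e-06). In PC9 this was the only call that held in all 4 fits without a library of the line. Without ZNF263 library 1 the HCC827 call was lost (adjusted p = 0.0568).

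ACSL3 (chromosome 2, 222860934 to 222944639), which activates long-chain fatty acids with coenzyme A, had 20.2 and 21.4 FPKM in H1975 with ZNF263 against 39.3 and 39.7 FPKM in H1975 controls. The change was -0.90 ± 0.09 (SE, limma adjusted p = 1.06e-06), and its groups overlapped in PC9 and HCC827. ACSS2, which makes acetyl-CoA from acetate, and ACLY, which makes it from citrate, changed by -0.29 and -0.23 in H1975 (limma adjusted p = 0.00366 and 0.00284). ACACA, the cytosolic acetyl-CoA carboxylase, changed by 0.22 and FASN, the fatty acid synthase, by 0.23 in H1975 (limma adjusted p = 0.00173 and 0.00669), and neither was called elsewhere. ACACA overlaps C17orf78 and ACSS2 overlaps GGT7, each on the opposite strand. SCD, the stearoyl-CoA desaturase, has 1 pseudogene of its name. It had 115.5 and 114.2 FPKM in HCC827 with ZNF263 against 134.6 and 128.5 FPKM in HCC827 controls. The groups did not overlap, and SCD fell by 0.19 (limma adjusted p = 0.0178), a call lost without control library 1 or either ZNF263 library (adjusted p up to 0.0795).

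Across the 12 fatty acid genes, 5 rose (41.7%) and 4 fell (33.3%) in H1975, against 32.1% of all genes in each direction (median -0.04). In HCC827, 2 rose and 1 fell (median 0.05). In PC9, 3 rose and 0 fell (median 0.07), and at an unadjusted p under 0.05 limma gave 5 higher and 0 lower. The median change of sterol genes less that of fatty acid genes was -0.09 in PC9, 0.01 in HCC827 and -0.09 in H1975. Summed over the list, fatty acid genes stood at 1661 and 1661 FPKM in PC9 with ZNF263 against 1595 and 1642 FPKM in PC9 controls. Their sums were 460.8 and 463.8 FPKM in HCC827 with ZNF263 against 473.1 and 465.3 FPKM in HCC827 controls. In H1975 they were 498.1 and 491.2 FPKM with ZNF263 against 490.4 and 489.5 FPKM in controls. The groups overlapped in no line, but the nearest libraries stood at 1661 against 1642 FPKM in PC9 and 463.8 against 465.3 FPKM in HCC827. In H1975 they stood at 491.2 against 490.4 FPKM. The sums were higher with ZNF263 in PC9 and H1975 and lower in HCC827. Sums of this kind follow the genes of highest FPKM and were not tested. Sterol genes summed to 624.4 and 614.9 FPKM in H1975 with ZNF263 against 652.2 and 630.4 FPKM in H1975 controls, without overlap. Their sums overlapped in PC9, at 686.3 and 702.7 FPKM with ZNF263 against 689.1 and 699.7 FPKM in controls, and in HCC827, at 470.5 and 488.2 FPKM with ZNF263 against 504.8 and 470.3 FPKM in controls.

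Levels of the control libraries differed among the lines, within the limit on comparing the tables. SREBF1 was highest in HCC827 (79.5 FPKM), then PC9 (56.3 FPKM), then H1975 (11.95 FPKM, mean of 2 libraries each), and the ranges of these groups did not overlap. FADS2, the delta-6 desaturase, averaged 254.6 FPKM in PC9 controls, 38.7 FPKM in H1975 controls and 3.97 FPKM in HCC827 controls. ACLY and FASN averaged 421.2 and 255.3 FPKM in PC9 controls, 59.8 and 86.0 FPKM in HCC827 controls and 89.7 and 50.2 FPKM in H1975 controls. The carboxylase ACACB averaged 1.60, 0.508 and 0.567 FPKM in the controls of PC9, HCC827 and H1975 and was not called in any line.

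The size of the change varied between lines for most members. By an F test in limma, 26 of 36 (72.2%) differed between lines, against 60.3% of all genes. In at least 1 of the 3 pairs of lines, 26 members (72.2%) differed, against 65.2% of all genes. Those called by the F test were 3 of 5 SREBP control genes, 14 of 19 sterol genes and 9 of 12 fatty acid genes. Of the 36 members, 7 were called in no line, 21 in 1 line, 7 in 2 lines and 1 in 3 lines. Averaged over the 3 lines, 8 members were higher (22.2%) against 28.9% of all genes, and 9 were lower (25%) against 23.9% of all genes. The 8 were SREBF1, SREBF2, INSIG1, ELOVL5, ELOVL6, FADS1, LSS and FDPS, with changes between 0.09 (FDPS) and 0.58 (ELOVL6). The 9 were ACSL3, NSDHL, MVK, IDI1, ACLY, MVD, SC5D, CYP51A1 and EBP, between -0.25 (ACSL3) and -0.10 (EBP). Of these 17, SREBF2, LSS and FDPS and all of the 9 but EBP were called in H1975 alone of the lines. With no filter on low values, the calls of FDPS and EBP in the average were lost (adjusted p = 0.057 and 0.0604), and each was also lost in 8 of the 12 fits that left out a library. The FDPS call was lost with median-of-ratios scaling too (adjusted p = 0.17) and the EBP call with the replicate block (adjusted p = 0.0544). Less neighbouring genes, the average was 0.0497 for SREBF2 (adjusted p = 0.233) and 0.00206 for LSS (adjusted p = 0.972), and FDPS, CYP51A1 and ACLY also lost their calls (adjusted p = 0.344, 0.0716 and 0.0702).

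In H1975 some members changed with the genes around them. For each gene the median change of up to 20 tested genes on either side was taken. For SREBF2 that median was 0.53, so SREBF2 exceeded its neighbours by 0.22 (limma adjusted p = 0.00472). For LSS the neighbours' median was 0.33, and LSS exceeded it by 0.04 (limma adjusted p = 0.651). SQLE, whose neighbours had a median of -0.24, changed by -0.06 less its neighbours (limma adjusted p = 0.361). INSIG2 and ACLY changed about as much as their neighbours, whose medians were -0.28 and -0.24. MVK and AACS, with neighbours at -0.25 each, kept differences of -0.48 and -0.24 from them (limma adjusted p = 2.53e-05 and 0.0153). Less neighbouring genes, 9 members were higher and 12 lower in H1975, and 18 of the 26 calls held in the same direction. FASN, FDPS, FADS1 and CYP51A1 also lost their calls. So did the difference between lines by the F test of SQLE, INSIG2, FDPS, CYP51A1, MSMO1 and FASN (limma adjusted p from 0.059 for SQLE to 0.942 for INSIG2), and the PC9 call of SQLE (adjusted p = 0.0604). By contrast, neighbours of ELOVL6, ELOVL5, SREBF1, ACSL3, NSDHL, IDI1 and TM7SF2 had medians between -0.09 and 0.17, and all 7 kept theirs, with ELOVL6 at 1.01 and ACSL3 at -0.90. The part that chromosomal position plays in these changes was not tested.

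**Figure D4:**
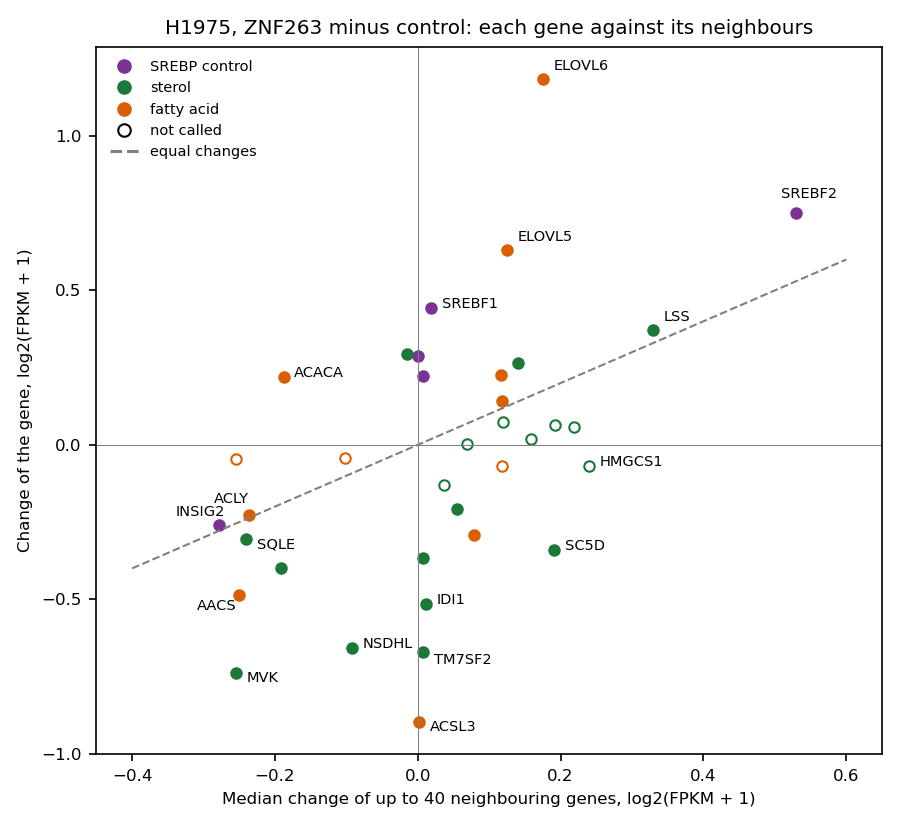
Change of each of the 36 genes in H1975 (vertical axis) against the median change of up to 40 neighbouring tested genes (horizontal axis), both ZNF263 minus control on the log2(FPKM + 1) scale. Filled points are called; SREBF2 (0.75 against 0.53) and LSS (0.37 against 0.33) lie near or above the dashed line of equal changes, and ACSL3 (-0.90 against 0.00) far below it.

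Cell type markers also moved in H1975. Lung epithelial markers summed to 1503 and 1473 FPKM in H1975 with ZNF263 against 2290 and 2336 FPKM in H1975 controls, and 5 of 7 fell while 1 rose. EPCAM, an epithelial adhesion protein, had 31.2 and 32.2 FPKM in H1975 with ZNF263 against 219.9 and 229.5 FPKM in H1975 controls. Fibroblast markers summed to 179.9 and 175.5 FPKM in H1975 with ZNF263 against 30.9 and 34.2 FPKM in H1975 controls, and COL1A2, a collagen gene, made up 168.6 and 164.2 FPKM of it with ZNF263 against 14.0 and 15.1 FPKM in controls. Of the 5 fibroblast markers tested, 3 rose and 2 fell in H1975, while THY1, DCN and PDGFRA stayed below 0.05 FPKM there. Immune markers summed to 85.2 and 79.6 FPKM in H1975 with ZNF263 against 95.2 and 95.7 FPKM in H1975 controls, with PTPRC below 0.05 FPKM in every library. All 3 immune markers tested were called in H1975, in different directions. CD14, a monocyte receptor, had 21.7 and 18.7 FPKM with ZNF263 against 2.22 and 3.96 FPKM in controls (change 2.40), and CD79A, a B cell receptor subunit, 0.628 and 0.713 FPKM with ZNF263 against 9.86 and 10.7 FPKM in controls (change -2.76). CD68, a lysosomal protein of macrophages that made up most of the sum, changed by -0.41. In PC9, 4 of 7 lung epithelial markers rose, with sums of 3622 and 3440 FPKM with ZNF263 against 2258 and 2282 FPKM in controls. Only 3 of the 7 reached 1 FPKM in each PC9 library, so at least 1 of the 4 lay below that level. In HCC827, 1 of the 7 rose and 1 fell. The part of these shifts in the lipid gene changes was not tested, and fewer cells of a type and less RNA per cell cannot be told apart in bulk RNA.

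Related lists were read beside the members. The shares of all genes to set beside their counts were 32.1% higher and 32.1% lower in H1975, 13.0% and 6.44% in HCC827, and 7.21% and 4.12% in PC9. All these counts are on the deposited scale, and no related list was counted under other scalings. Of 11 tested genes of SREBP processing and turnover, 5 rose and 1 fell in H1975, 3 rose and 1 fell in HCC827, and 0 rose and 2 fell in PC9, where limma also gave 0 higher at an unadjusted p under 0.05. MBTPS1, the protease that makes the first cut in SREBPs, had 59.1 and 59.1 FPKM in H1975 with ZNF263 against 30.4 and 32.5 FPKM in H1975 controls (change 0.89, limma adjusted p = 1.56e-08). RNF139, an ER ubiquitin ligase, showed the largest fall there (-0.39, limma adjusted p = 0.00054). Its neighbours had a median change of -0.24, and less these it changed by -0.155 and was not called (limma adjusted p = 0.1). In HCC827 the largest rise was UBXN4 (0.32), and in PC9 the largest fall was ERLIN1 (-0.31), which are proteins of ER-associated degradation.

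Of 13 tested genes of sterol efflux, storage and export, 10 rose (76.9%, against 32.1% of all genes) and 2 fell (15.4%, against 32.1%) in H1975, with a median change of 0.27 against 0.00254 over all genes. The largest rise was NR1H3, the oxysterol receptor LXR alpha, with 6.01 and 5.34 FPKM in H1975 with ZNF263 against 2.54 and 2.34 FPKM in H1975 controls (change 0.95, limma adjusted p = 5.68e-07). The largest fall was NPC2, a lysosomal sterol carrier, at -0.87 (limma adjusted p = 1.73e-07). In HCC827, 1 rose (NPC2, 0.21) and 2 fell (SCARB1 the most, -0.34). In PC9, 2 rose and 0 fell, with 5 higher and 1 lower at an unadjusted p under 0.05 from limma. GRAMD1B, a sterol transfer protein, led there with 10.4 and 9.996 FPKM with ZNF263 against 5.46 and 5.32 FPKM in controls (change 0.81, limma adjusted p = 4.78e-06). In the isoprenoid branch of 8 tested genes, none was called in PC9 or HCC827, with 0 and 1 higher and 0 and 1 lower at an unadjusted p under 0.05 from limma. In H1975, 2 of them rose (COQ2 the most, 0.29, then PDSS1) and 1, GGPS1, fell by 0.36. Less neighbouring genes, COQ2, PDSS1 and GGPS1 changed by 0.05, -0.00333 and -0.18. All of these calls were then lost (limma adjusted p = 0.539, 0.974 and 0.0594).

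On the fatty acid side, 13 other elongation, desaturation and acyl-CoA genes were tested. Of these, 6 rose and 2 fell in H1975, 6 rose and 1 fell in HCC827, and 2 rose and 0 fell in PC9, where limma gave 6 higher and 0 lower at an unadjusted p under 0.05. ACSL4, an acyl-CoA synthetase for arachidonate, had 64.7 and 67.1 FPKM in H1975 with ZNF263 against 32.3 and 31.5 FPKM in H1975 controls (change 1.02, limma adjusted p = 8.57e-08), opposite to ACSL3, and its neighbours had a median change of 0.73. ELOVL7, an elongase of long saturated chains, showed the largest rise in PC9 (0.44, limma adjusted p = 0.00488) and the largest fall in H1975 (-0.70, limma adjusted p = 1.03e-05). In HCC827 the largest rise was ACSL5 (0.43) and the fall was ELOVL1 (-0.30). With the change of neighbouring genes taken off, ELOVL2, ELOVL4 and ACSL1 lost their HCC827 calls (limma adjusted p = 0.0554, 0.0655 and 0.0866). ELOVL7, HACD3, ACSL5 and ELOVL1 kept theirs. The mitochondrial citrate carrier SLC25A1 was the 1 gene of 7 in the citrate and NADPH list called higher in each line, by 0.20 in PC9 (limma adjusted p = 0.0356), 0.17 in HCC827 (adjusted p = 0.0472) and 0.25 in H1975 (adjusted p = 0.00154). In H1975 its neighbours had a median change of 0.40 and it lay 0.14 below them (limma adjusted p = 0.047). Its rises in PC9 and HCC827 were 0.164 and 0.129 less neighbouring genes, and neither was then called (limma adjusted p = 0.0842 and 0.138). Of that list, 0 genes fell in PC9 and in HCC827 (0 and 1 lower at an unadjusted p under 0.05 from limma) and 3 fell in H1975.

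Of 16 fatty acid oxidation genes, 9 rose (56.2%, against 32.1% of all genes) and 5 fell (31.2%, against 32.1%) in H1975. In HCC827, 5 rose (31.2%, against 13.0%) and 0 fell (against 6.44%), and in PC9 1 rose (6.25%, against 7.21%) and 0 fell. The HCC827 counts are on the deposited scale, where rises made up 66.9% of all calls (45.0% with median-of-ratios scaling). This list was not counted under other scalings. At an unadjusted p under 0.05 limma gave 0 lower in HCC827 and 2 lower in PC9. CPT1A, the gate of long-chain fatty acids into mitochondria, had 11.8 and 13.2 FPKM in HCC827 with ZNF263 against 8.47 and 8.07 FPKM in HCC827 controls (change 0.54, limma adjusted p = 0.000216). In H1975 it had 12.3 and 13 FPKM with ZNF263 against 27.6 and 25.5 FPKM in controls (change -1.01, limma adjusted p = 4.2e-08). The largest rise was PPARA in H1975 (0.94, limma adjusted p = 4.43e-06) and CPT2 in PC9 (0.40, limma adjusted p = 0.00274). Neighbours of PPARA had a median change of 0.57 in H1975, and PPARA exceeded it by 0.375 (limma adjusted p = 0.00795). Of 14 glycerolipid and lipid droplet genes, 3 rose and 6 fell in H1975, 1 rose and 0 fell in HCC827, and 2 rose and 0 fell in PC9. At an unadjusted p under 0.05 limma gave 2 lower in each of these lines. DGAT2, which makes triglyceride, had 15.5 and 14.6 FPKM in H1975 with ZNF263 against 3.49 and 2.52 FPKM in H1975 controls (change 2.01, limma adjusted p = 1.44e-08), and MGLL, a monoglyceride lipase, changed there by -1.42 (limma adjusted p = 1.67e-09). The largest rise was LPCAT1 in HCC827 (0.71) and AGPAT2 in PC9 (0.47).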

How the data were processed

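RNA-seq expression was analysed from 12 libraries of PC9, HCC827 and H1975, 2 per line and vector, grouped by their cell line and genotype labels. The authors deposited FPKM values per gene and library, with no library totals. Per the submitters' processing notes the build was GRCh38, patch p13. Aligner, counter, annotation and strandedness: not given in the sources used here. Of 20030 entries, 27 named as calendar dates were left out. HCC827 and H1975 had no value for 3383 and 3339 genes, and PC9 lacked none.

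Values were taken as log2(FPKM + 1), which understates changes of low genes. A gene was kept when 2 libraries or more reached 1 FPKM. Tests used limma (version 3.58.1, under R version 4.3.3; lmFit, contrasts.fit, eBayes with a trended prior; 1 mean per group, spread shared by all groups). Contrasts were ZNF263 minus control per line, their mean, an F test between lines and differences between pairs of lines, all 2-sided, adjusted by Benjamini-Hochberg over all genes of a contrast. The fit was tested on simulated data. Reads were recovered as the smallest whole numbers in proportion to a gene's values and gave whole numbers for 98.58% to 99.48% of genes in a line. They are lower bounds. Paired libraries differed beyond counting noise (mean chi-square 1.8 to 4.05). Same-numbered libraries did not vary together, so no pairing was used.

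The members and lists were chosen with earlier results of these data known. All members could be named; values by library were given for SREBF1, SREBF2 and INSIG1, for the 4 largest called rises and falls of each line (all, where fewer were called), and for members called in opposite directions; for some of these the other lines are shown too. Alternatives covered the pseudocount, filter, scaling, replicate block, each line alone, neighbouring genes and each library left out. Positions are from GENCODE on GRCh38. Some genes of the related lists are not reported here.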

Additional observations from a re-analysis of the deposited data

Results flagged for a closer look

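The change with ZNF263 differed in at least 1 of 3 pairs of lines for 26 members (72.2%), against 65.2% of all genes, by limma's test of the difference, adjusted within each pair but not over the 3 pairs. Of these, 25 were also called by the F test, which left out INSIG1 and called SCD instead. For 3 of the 26 the calls went in opposite directions in the lines compared. For SQLE, the change in H1975 less that in PC9 was -0.51 (limma adjusted p = 0.00018). For DHCR7, the change in H1975 less that in HCC827 was 0.52 (limma adjusted p = 0.000952). For AACS, the change in H1975 less that in PC9 was -0.94 (limma adjusted p = 8.73e-06). 

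The change in H1975 less the change in HCC827 was positive at 1.02 for ELOVL6, 0.81 for SREBF2, 0.47 for LSS, 0.39 for FASN, 0.34 for SREBF1, 0.28 for FDPS (limma adjusted p at most 0.0143). The change in H1975 less the change in HCC827 was negative at -1.01 for TM7SF2, -1.01 for ACSL3, -0.78 for MVK, -0.64 for NSDHL, -0.63 for IDI1, -0.46 for MVD, -0.44 for STARD4, -0.43 for SC5D, -0.40 for CYP51A1, -0.38 for INSIG2 (limma adjusted p at most 0.0131). The change in H1975 less the change in PC9 was positive at 0.61 for ELOVL5, 0.32 for MSMO1, 0.26 for ACACA, 0.21 for INSIG1 (limma adjusted p at most 0.0434). The change in H1975 less the change in PC9 was negative at -0.46 for ACSS2, -0.38 for FDFT1, -0.27 for FADS2 (limma adjusted p at most 0.02). Each gene is given for the pair of lines with the smallest p. Less neighbouring genes, the F test no longer called SQLE, INSIG2, FDPS, CYP51A1, MSMO1 or FASN (limma adjusted p from 0.059 for SQLE to 0.942 for INSIG2). Groups of 2 libraries were too small to look for a library far from the others.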

How the results depend on the processing

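The counts of called members in H1975 (26), in the mean of the lines (17) and by the F test (26) stayed within 1.5 times under every alternative run. With the 4 libraries of a line alone, the PC9 count of 5 fell to 1 and the HCC827 count of 7 to 0, where limma then had 2 residual degrees of freedom per gene. Leaving out a library gave 2 to 11 in PC9 and 3 to 13 in HCC827. The counts of 11 (8 higher, 3 lower) arose without either HCC827 control, because the lines share one spread, and that of 13 (5 higher, 8 lower) without HCC827 control library 2. Without HCC827 control library 1 there were 3 higher and 0 lower in HCC827. In the 4 fits that each left out a library of the line, 1 of the 5 PC9 calls, 1 of the 7 HCC827 calls and 23 of the 26 H1975 calls held every time. The sterol less fatty acid median in PC9 was -0.12 with a pseudocount of 0.1 and -0.0623 after quantile normalization, and -0.12 to -0.10 without a library. In HCC827 it turned to -0.00266 after quantile normalization, and lay from -0.0283 (without control library 2) to 0.0544 without a library, so its sign was not settled. In H1975 it was -0.13 after quantile normalization and -0.186 to -0.0695 without a library. Less neighbouring genes, INSIG2, ACLY and ACACB in H1975 turned to 0.0195, 0.00801 and 0.209. Of all calls in HCC827, rises made up 66.9% on the deposited scale, 45.0% under median-of-ratios scaling and 50.5% under quantile normalization, and the members' 4 higher and 3 lower became 3 and 5, and 3 and 2. With the replicate block, members called higher and lower numbered 4 and 1 (PC9), 4 and 2 (HCC827) and 12 and 14 (H1975). The correlations of same-numbered libraries were 0.037, 0.089 and -0.043, so the numbers do not pair them. With 2 libraries per group, small changes in PC9 and HCC827 are the least certain.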
